A study of Homo sapiens with 6 samples.

Results

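The proteasome subunit genes described here are the 37 of 25277 gene rows whose symbol is PSMA, PSMB, PSMC or PSMD followed by a number, apart from PSMB8 and PSMB9. They comprise 17 genes of the core particle and 17 of the regulatory particle. A further 3 genes, PSMD5, PSMD9 and PSMD10, encode chaperones that help to assemble the base of the regulatory particle and are no part of the finished complex. Of the 37, 35 averaged 1 FPKM or more and were tested. FPKM, the unit of every level below, are fragments scaled by transcript length and by library size, so that levels of different genes can be compared per length. PSMA8, the alpha subunit of the testis, was listed at between 0 and 1.42 FPKM, and PSMB11, the beta subunit of the thymus, was listed at 0 in all 6 libraries. Neither was tested.

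The proteasome is the protease that degrades proteins marked with ubiquitin. Its core particle is a barrel of outer alpha rings, which gate the entrance, and inner beta rings, of which PSMB5, PSMB6 and PSMB7 carry the proteolytic sites. The regulatory particle caps the barrel. Its base holds a ring of ATPases, PSMC1 to PSMC6, that unfolds substrates, together with scaffold and ubiquitin-binding subunits, and its lid removes ubiquitin. PSMB5 is the main target of the proteasome inhibitor bortezomib, a drug used against mantle cell lymphoma. The genes of both particles are known to be transcribed together, in part through NFE2L1, a transcription factor that binds antioxidant response elements.

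The RNA came from Jeko and Rec-1, which are human lines derived from mantle cell lymphoma, a cancer of B cells. All cells carried a doxycycline-inducible (tet-on) CRISPR/Cas9 vector as a stable line and were taken 48 h after doxycycline, so the controls were induced too. In each line, 1 library came from cells with the empty vector, 1 from cells with sgRNA 1 against NR4A1 and 1 from cells with sgRNA 2. NR4A1 encodes a nuclear receptor, and a guide RNA directs Cas9 to cut the gene. The 2 sgRNA libraries of a line stand as its replicates, the controls have none, and no label gives separate cultures, so that p-values measure only the spread between these libraries.

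Within Rec-1, control and sgRNA libraries were unlike before any comparison. Over 10322 protein-coding genes the Pearson correlation of log2(FPKM + 1) between the controls of both lines was 0.988. The control labelled Rec-1 correlated at 0.805 and 0.811 with sgRNA 1 and 2 of its own line. No pair from the same line was as alike as the controls. The Jeko control reached 0.968 and 0.963 with its sgRNA libraries, which correlated at 0.973 with each other. For the Rec-1 sgRNA pair the value was 0.976. CCND1, the cyclin gene that defines mantle cell lymphoma, was at 495 FPKM in the Rec-1 control and at 442 to 815 FPKM in the Jeko libraries. It was at 0.696 and 0.592 FPKM in the Rec-1 sgRNA libraries. CD3D, which encodes a CD3 chain of the T-cell receptor complex, was at 66.3 and 95.3 FPKM in the Rec-1 sgRNA libraries. It was at most 0.438 FPKM in the other libraries. Of the 3 T-cell markers, 2 reached 1 FPKM and CD8A was listed at 0 in both Rec-1 sgRNA libraries, where their sum was 71.5 and 101 FPKM against 0.723 to 1.39 FPKM elsewhere. The 11 markers of other cell types summed to between 1.52 and 4.32 FPKM in every library, and 7 or 8 of the 9 B-cell and mantle cell markers reached 1 FPKM. NR4A1 itself was at 5.99 FPKM in the Jeko control, 3.89 and 4.44 FPKM in the Jeko sgRNA libraries, 11.6 FPKM in the Rec-1 control, 27.4 FPKM in Rec-1 sgRNA 1 and 12.7 FPKM in Rec-1 sgRNA 2. A cut gene can still be transcribed, so this level is no check of the sgRNA labels. The part of these differences in the results below was not tested, and Rec-1 is given with its labelled control and, between the lines, without either control.

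Promoters are shown for 5 members whose levels the results turn on. They are PSMC5 and PSMC3 (lowest in the Rec-1 sgRNA libraries), PSMD5 and PSMB5 (highest in them) and PSMB3. PSMB3 was below the control in the sgRNA libraries of both lines. The sequences are from RefSeq (GRCh38.p14), lie before the annotated transcript start on the gene's own strand and are written 5′ to 3′. Capitals mark matches, on either strand, to the antioxidant response element core TGACNNNGC or the CCAAT box CCAAT, which do not overlap here.
PSMC5, plus strand of chr17:63827261-63827430: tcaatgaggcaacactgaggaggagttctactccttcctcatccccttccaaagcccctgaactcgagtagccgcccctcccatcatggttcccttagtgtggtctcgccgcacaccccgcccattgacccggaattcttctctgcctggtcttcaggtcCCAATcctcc
PSMC3, minus strand of chr11:47426475-47426609: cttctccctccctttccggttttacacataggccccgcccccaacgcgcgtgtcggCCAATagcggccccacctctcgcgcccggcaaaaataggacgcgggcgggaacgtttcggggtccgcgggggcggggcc
PSMD5, minus strand of chr9:120842923-120843092: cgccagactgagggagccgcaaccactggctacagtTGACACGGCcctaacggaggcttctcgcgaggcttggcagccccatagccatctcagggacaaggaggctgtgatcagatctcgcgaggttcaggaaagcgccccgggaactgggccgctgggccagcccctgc
PSMB5, minus strand of chr14:23035221-23035390: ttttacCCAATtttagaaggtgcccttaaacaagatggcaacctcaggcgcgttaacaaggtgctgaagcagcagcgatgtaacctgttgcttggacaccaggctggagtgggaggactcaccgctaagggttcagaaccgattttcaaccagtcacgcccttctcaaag
PSMB3, plus strand of chr17:38752571-38752740: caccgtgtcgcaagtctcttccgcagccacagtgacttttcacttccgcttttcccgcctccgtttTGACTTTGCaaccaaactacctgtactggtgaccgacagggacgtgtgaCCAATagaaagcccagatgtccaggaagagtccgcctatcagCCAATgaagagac

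Promoters of 250 bases before to 50 after the start were matched by symbol for 32 of the 37 genes, and PSMA7, PSMB1, PSMB6, PSMB7 and PSMD4 were not matched. TGACNNNGC was found in 9 of the 32 (28.1%), against 16.1% of all 27305 genes of the table, and CCAAT in 17 (53.1%), against 39.7%. The 9 were PSMA4, PSMB3, PSMC4, PSMC5, PSMD1, PSMD3, PSMD5, PSMD9 and PSMD12, with the match of PSMC5 outside the stretch printed. They thus include genes lower (PSMC5, PSMD9) and higher (PSMD5) in the Rec-1 sgRNA libraries. A match is a description of letters, not a shown binding site.

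Members of the core particle had the higher levels. In the Jeko control the 15 tested core genes had a median of 203 FPKM, from 43.3 FPKM for PSMB2 to 540.5 FPKM for PSMB4, and the 17 regulatory genes a median of 102 FPKM, from 21.8 FPKM for PSMD11 to 279 FPKM for PSMD4. The core median was 1.68 to 2.52 times the regulatory median over the 6 libraries. PSMB4, a beta subunit with no proteolytic site, was the most abundant member in 5 libraries and the 6th in Rec-1 sgRNA 2. PSMD5 was the lowest of the 35 in 5 libraries, at 4.96 to 11.97 FPKM, and PSMD9 was the lowest in Rec-1 sgRNA 2. The order within the complex differed most for the ATPase PSMC5, which ranked 8 to 11 of 35 in the Jeko libraries and the Rec-1 control but 27 and 28 in sgRNA 1 and 2 of Rec-1.

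**Figure D1:**
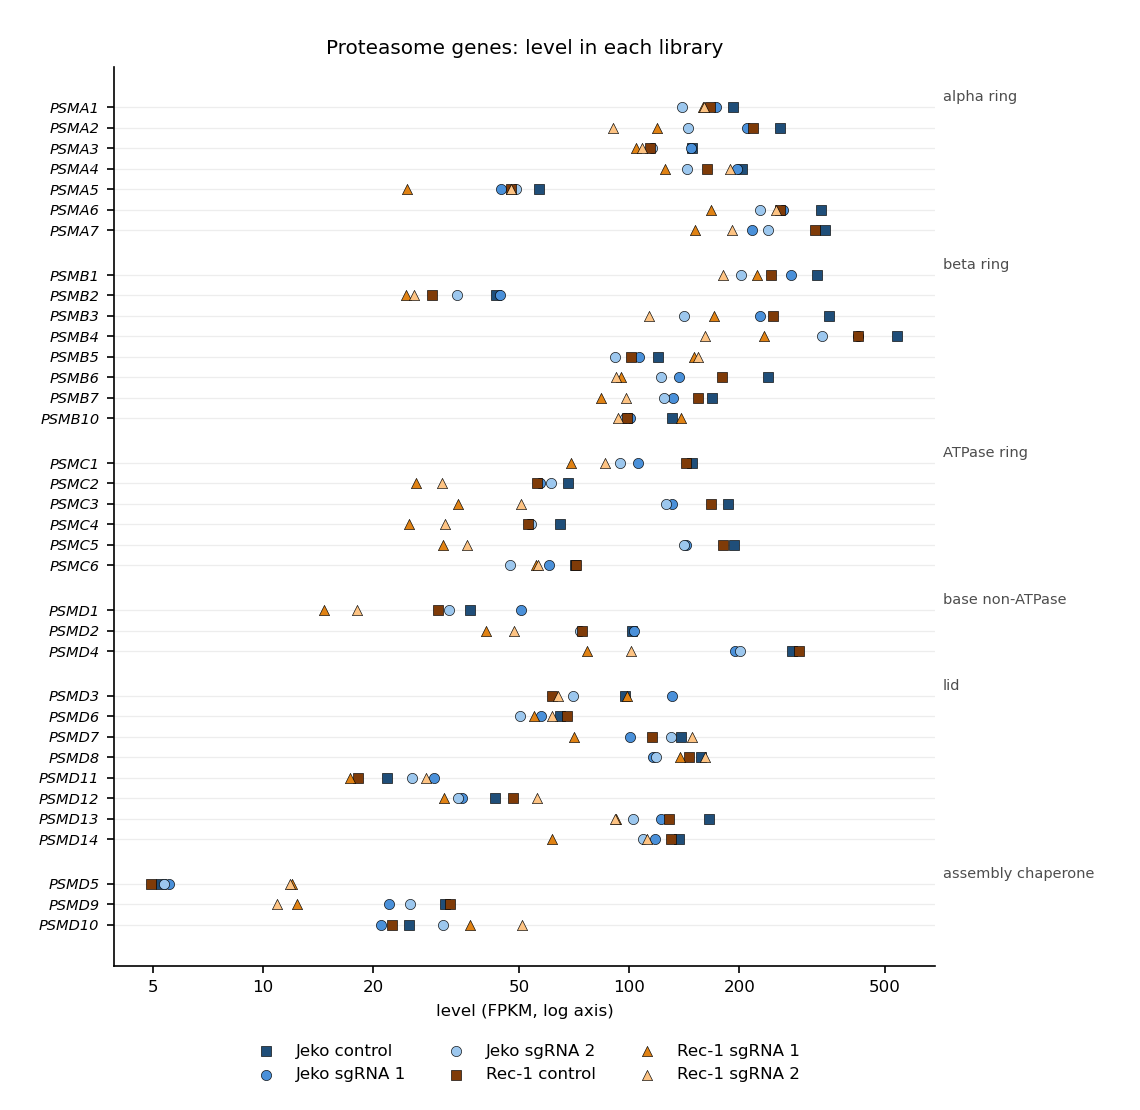
Level of each of the 35 tested proteasome genes in each library (FPKM, log axis), grouped by ring or subcomplex; squares are controls, circles Jeko sgRNA and triangles Rec-1 sgRNA libraries. For PSMC3, PSMC5 and PSMD4 the Rec-1 sgRNA libraries lie well below the other 4, and for PSMD5 above them.

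Relative to the control of the same line, most core particle genes were lower in the sgRNA libraries. The median difference in log2(FPKM + 1) over the 15 core genes was -0.34 for Jeko sgRNA 1, -0.49 for Jeko sgRNA 2, -0.53 for Rec-1 sgRNA 1 and -0.16 for Rec-1 sgRNA 2. The median over all 11400 tested genes was 0.00, 0, -0.02 and 0. After the adjustment for transcript length described below, the core median of Jeko sgRNA 1 was -0.0071 and that of Jeko sgRNA 2 was -0.31. Core genes below the control numbered 14, 15, 13 and 13 of 15, and 48.8%, 49.2%, 50.9% and 49.4% of all genes were. Summed over the core genes, the sgRNA libraries held 78.1%, 63.9%, 71.3% and 70.7% of the control's FPKM. In bulk RNA, fewer cells of a kind and less RNA per cell cannot be told apart.

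Of all 35 members, 22 were below their own control in all 4 sgRNA libraries, 11 of them core genes, 10 regulatory genes and the chaperone PSMD9, where 21.1% of all tested genes were. PSMD5 alone was above it in all 4, where 21.0% of genes were. The 2 sgRNA libraries of a line share 1 control, so a control that is high for a gene places both below it. In Jeko 28 of the 35 were lower with both guides (background 36.4%) and in Rec-1 25 (background 43.1%).

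Among the subunits with proteolytic sites, PSMB6, the caspase-like site, had the most even difference. It was at 240.1 FPKM in the Jeko control, 137 and 122 FPKM in the Jeko sgRNA libraries, 179 FPKM in the Rec-1 control, 94.8 FPKM in Rec-1 sgRNA 1 and 91.9 FPKM in Rec-1 sgRNA 2. All 4 sgRNA libraries lay between 50.9% and 57.0% of their control, and both controls above them. PSMB7, the trypsin-like site, was at 169 FPKM in the Jeko control and 132 and 125 FPKM with the guides, and at 154 FPKM in the Rec-1 control and 83.6 and 98.02 FPKM with the guides. It was below the control in all 4 libraries.

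PSMB5, the chymotrypsin-like site, differed in direction between the lines. It was at 120.1 FPKM in the Jeko control and 106 and 91.7 FPKM in the Jeko sgRNA libraries, but at 101, 151 and 154 FPKM in the control, sgRNA 1 and sgRNA 2 of Rec-1. Both Rec-1 sgRNA libraries were above every other library. PSMB5 was lower than the control with both guides in Jeko and higher with both in Rec-1, a pattern held by 9.90% of all tested genes, and among the 35 members by PSMB5 only. PSMB10, which takes the place of PSMB7 in the immunoproteasome, was at 131 FPKM in the Jeko control, 100.4 and 97.5 FPKM in the Jeko sgRNA libraries, 98.7 FPKM in the Rec-1 control, and 138 FPKM (sgRNA 1) and 93.3 FPKM (sgRNA 2) in the other Rec-1 libraries, which lay on either side of their control. PSMB8 and PSMB9, the other immunoproteasome subunits, were listed at 0 in all 6 libraries. Whether a listed 0 stands for absent RNA was not tested.

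PSMB3, a structural beta subunit, was at 351 FPKM in the Jeko control and 227 and 141 FPKM in the Jeko sgRNA libraries, and at 247, 171 and 113 FPKM in those of Rec-1. In both lines sgRNA 2 was the lower. PSMB3 and PSMB6 were the only members at least 1.5-fold below the control with both guides in Jeko, 2 of 35 where 5.02% of genes were. PSMB4 was at 540.5, 422 and 335 FPKM in the Jeko control, sgRNA 1 and sgRNA 2, and at 423, 233 and 161 FPKM in the Rec-1 libraries in the same order. Its control was the highest library in each line. Of the alpha ring, PSMA2 had the lowest mean difference, with 258, 209 and 145 FPKM in the Jeko libraries and 218, 119 and 90.1 FPKM in the Rec-1 libraries. PSMA3 had the highest, with 148, 147 and 115 FPKM in Jeko and 114, 104 and 108 FPKM in Rec-1, with Jeko sgRNA 1 at 99.3% of its control. PSMA4 in Rec-1 sgRNA 2, at 116% of its control, was the only alpha gene above the control in any sgRNA library.

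In the regulatory particle, base and lid stood at unlike shares of the control in Rec-1, which is a description with no test. The median difference over the 17 genes was -0.28 and -0.41 in the Jeko sgRNA libraries and -0.85 and -0.49 in those of Rec-1, with 13, 16, 16 and 12 of 17 below the control. Shares of all tested genes below it were 48.8%, 49.2%, 50.9% and 49.4%, in the same library order. Adjusted for transcript length as described below, the regulatory medians shrank to -0.099, -0.12, -0.78 and -0.24, again in that order. Summed FPKM of the 6 ATPases stood at 75.2% and 71.5% of the control in Jeko and at 35.9% and 43.4% in Rec-1. The 3 other base subunits stood at 83.5% and 73.3% in Jeko and at 33.4% and 42.6% in Rec-1. The 8 lid genes stood at 85.9% and 77.6% in Jeko and at 78.8% and 101% in Rec-1. The summed ATPase level was 0.441 to 0.520 times the summed alpha ring level in the Jeko libraries and the Rec-1 control, but 0.283 and 0.281 times in sgRNA 1 and 2 of Rec-1.

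The ATPases were below the control in all 4 libraries, 6 of 6, where 21.1% of all tested genes were. In Rec-1, PSMC5 had the lowest values of the ring relative to the control. It was at 193 FPKM in the Jeko control, 143 and 141 FPKM in the Jeko sgRNA libraries, 180.1 FPKM in the Rec-1 control, 31.0 FPKM in Rec-1 sgRNA 1 and 36.2 FPKM in Rec-1 sgRNA 2. The Rec-1 sgRNA libraries were thus at 17.2% and 20.1% of the control, below every other library. PSMC3 was at 187, 131 and 126 FPKM in the Jeko libraries, and at 167, 34.2 and 50.5 FPKM in the Rec-1 libraries. PSMC2 was at 67.9, 57.0 and 61.3 FPKM in Jeko and at 55.9, 26.1 and 30.8 FPKM in Rec-1. In both genes the Rec-1 sgRNA libraries were the lowest 2. PSMC6, of the same ring, had no such gap, at 71.3, 60.5 and 47.3 FPKM in Jeko and 71.7, 55.7 and 56.4 FPKM in Rec-1, with the lowest value in Jeko sgRNA 2.

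Of the other base subunits, PSMD4, a receptor for ubiquitin chains, was at 279, 195 and 200.4 FPKM in the Jeko libraries and at 290.3, 76.7 and 101 FPKM in the Rec-1 libraries. PSMD1, a large scaffold subunit, was at 36.9, 50.8 and 32.3 FPKM in Jeko, where the guides lay on either side of the control, and at 30.0, 14.6 and 18.0 FPKM in Rec-1. For both genes the Rec-1 sgRNA libraries were the lowest 2. No lid gene was 1.5-fold below the control with both guides in either line, where 5.02% of all genes were in Jeko and 20.1% in Rec-1. With 8 lid genes, this is near those shares. In Rec-1 sgRNA 1 alone, 3 of the 8 were 1.5-fold below the control, where 26.5% of all genes were. PSMD11, a lid scaffold, had the highest mean difference of the lid, with 21.8, 29.4 and 25.5 FPKM in Jeko and 18.2, 17.3 and 28.0 FPKM in Rec-1. The lid deubiquitinase PSMD14 was at 137, 117 and 109 FPKM in Jeko and 129.9, 61.5 and 112 FPKM in Rec-1, where the guides differed by more than Rec-1 sgRNA 2 did from the control.

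The 3 chaperones were not alike. PSMD5 was at 5.26, 5.53 and 5.35 FPKM in the Jeko libraries and at 4.96, 11.97 and 11.85 FPKM in the Rec-1 libraries. PSMD10, also known as gankyrin, was at 25.0, 21.0 and 31.0 FPKM in Jeko and at 22.5, 36.8 and 51.0 FPKM in Rec-1. PSMD9 was at 31.4, 22.1 and 25.2 FPKM in Jeko and at 32.5, 12.4 and 10.9 FPKM in Rec-1. For each of the 3, both Rec-1 sgRNA libraries lay outside the range of the other 4 libraries, above it for PSMD5 and PSMD10 and below it for PSMD9. The share of all genes with this pattern was not counted. Against the Jeko sgRNA libraries alone, both Rec-1 sgRNA libraries were lower for 37.0% of all tested genes and higher for 32.9%.

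In all, 14 of 35 members were at least 1.5-fold below the control with both guides in Rec-1, against 20.1% of all tested genes. They were PSMA2, PSMA7, PSMB4, PSMB6 and PSMB7 of the core, every ATPase but PSMC6, PSMD1, PSMD2 and PSMD4 of the base, and PSMD9. At 2-fold, PSMC3, PSMC5, PSMD4 and PSMD9 were lower, 4 of 35 where 11.4% of genes were, a share at the background. PSMD5 and PSMD10 were the 2 members at least 1.5-fold higher, where 20.3% of genes were.

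**Figure D2:**
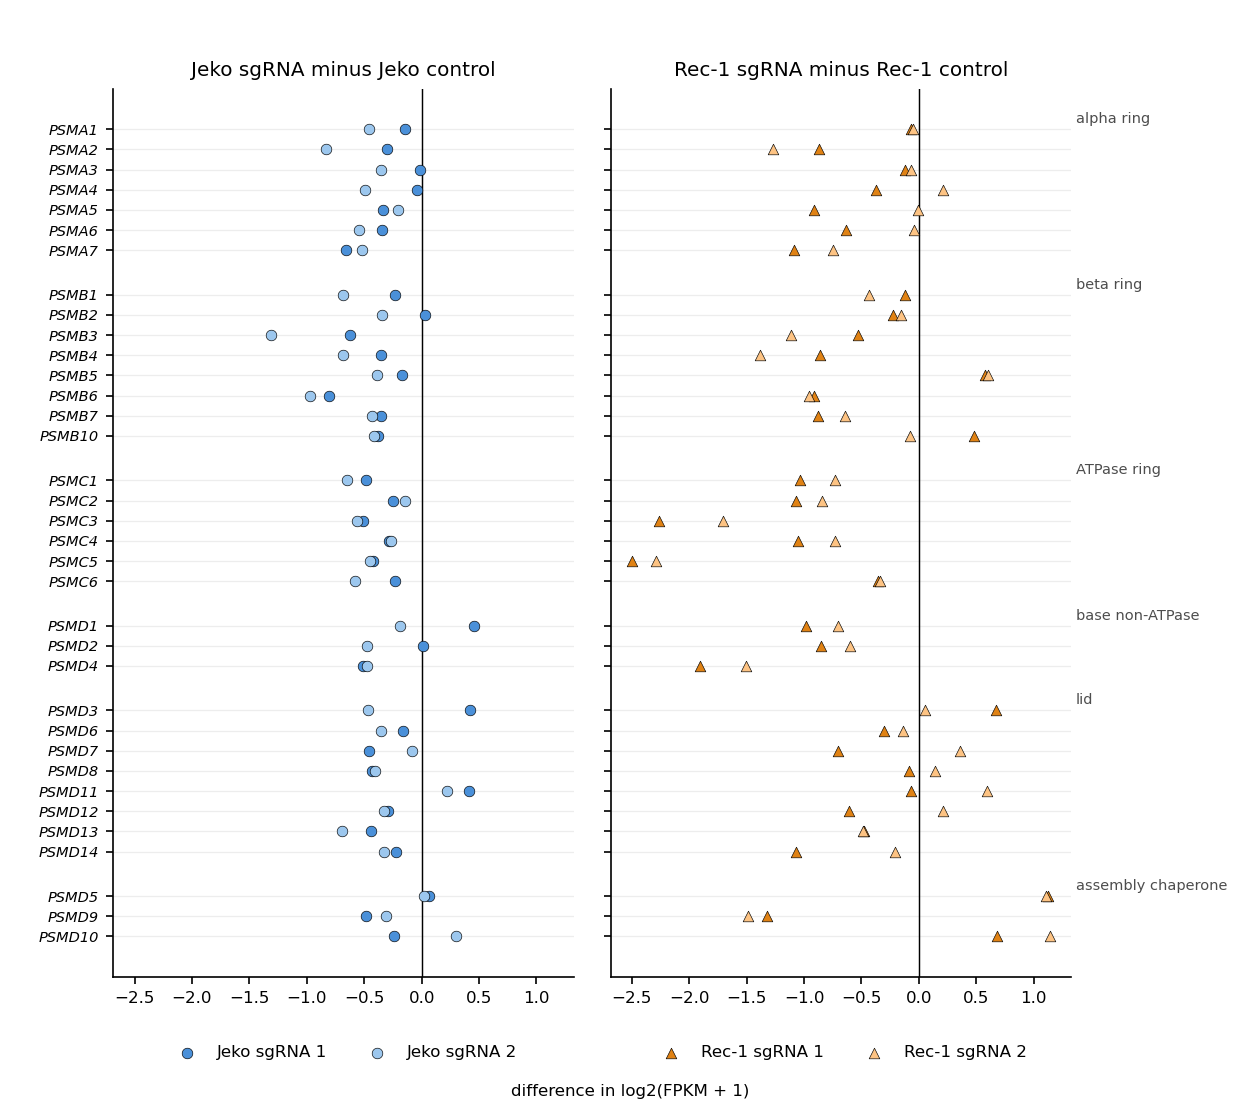
Difference in log2(FPKM + 1) between each sgRNA library and the control of its line for the 35 tested genes, Jeko on the left and Rec-1 on the right, with 1 point per sgRNA library and a line at no difference. In Jeko the points stay between -1.31 and 0.45, and in Rec-1 they reach from -2.50 (PSMC5) to 1.14 (PSMD10).

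Across both lines no member passed the test of sgRNA against control. In the limma fit of all 6 libraries with the line as a covariate, 0 of 35 members had an adjusted p under 0.05, where 0.246% of the 11400 genes did, and 13 members had an unadjusted p under 0.05, where 21.1% of genes did. Of these, 6 were core and 6 regulatory genes. PSMB6 had the lowest adjusted p of the members by limma (0.162), with a difference of -0.91 (SE 0.17) and the same direction in 4 of 4 sgRNA libraries. PSMC5 had the largest difference, -1.42 (SE 0.45), with an adjusted p of 0.203. It was -0.44 without the Rec-1 control and -2.39 without the Jeko control. Without the Jeko control, 5 members passed (PSMC3, PSMC5, PSMD4 and PSMD9 lower, PSMD5 higher), where 19.1% of all genes did. In that fit the effect is measured against the library labelled Rec-1 control alone, which is then assumed to vary like the sgRNA libraries.

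Between the 2 controls, core genes were lower in that labelled Rec-1. The Rec-1 control was below the Jeko control for 30 of 35 members, 15 of 15 core genes among them, where 52.0% of all genes were, and the summed core FPKM was 80.05% of that in the Jeko control. Only the lid gene PSMD3, at 97.3 FPKM in the Jeko and 61.6 FPKM in the Rec-1 control, differed by 1.5-fold, where 6.67% of genes did. With 1 library each, these differences have no test.

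Between the sgRNA libraries of the lines, summed levels were least alike for the base of the regulatory particle, a description with no test. The 2 Rec-1 sgRNA libraries together held 49.6% of the Jeko sgRNA libraries' FPKM for the ATPases, 45.8% for the other base subunits, 95.4% for the lid and 80.01% for the core particle. Within the ATPase ring the share went from 23.6% for PSMC5 to 104% for PSMC6. Both Jeko libraries were above both Rec-1 libraries for 17 of 35 members, 7 core and 9 regulatory genes and PSMD9, where 37.0% of all genes were. Both Rec-1 libraries were above both Jeko libraries for PSMB5, PSMD5, PSMD8 and PSMD10, where 32.9% of genes were.

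In the limma fit of the 4 sgRNA libraries, 8 of 35 members passed an adjusted p of 0.05, against 25.7% of all tested genes, a share near the background. Higher in Jeko were 7, where 13.1% of genes were, namely PSMC2, PSMC3, PSMC4 and PSMC5 of the ATPase ring, PSMD1 and PSMD4 of the base, and PSMD9. PSMD5 was higher in Rec-1, where 12.6% of genes were. PSMC5 differed by 2.05 (SE 0.17, limma adjusted p = 0.00427) on the log2(FPKM + 1) scale and PSMC3 by 1.60 (SE 0.25, adjusted p = 0.0192). PSMD5 differed by -1.003 (SE 0.17, adjusted p = 0.0235). PSMD1 differed by 1.27 (SE 0.29, limma adjusted p = 0.0460), PSMD4 by 1.16 (SE 0.21) and PSMC2 by 1.04 (SE 0.18). With a minimum mean of 5 FPKM PSMD1 did not pass, and with no filter neither PSMD1 nor PSMC4 did. None of the 15 core genes passed by limma, with 5 at an unadjusted p under 0.05, where 41.9% of genes were. The core gene PSMB4, with a difference of 0.95 (SE 0.27, adjusted p = 0.0690), passed under the length adjustment (adjusted p = 0.0212) and among protein-coding genes only (0.0365). PSMB5, the only core gene higher in both Rec-1 libraries, differed by -0.62 (SE 0.17, adjusted p = 0.0681). None of the 8 lid genes passed.

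These calls rest on 2 libraries a line. With any 1 of the 4 left out, fewer members passed, and so did fewer of all tested genes. The lone library of a line is then assumed to vary like the other pair. The median difference of the 17 regulatory genes, 0.37 over both guides, was 0.73 for guide 1, 0.13 for guide 2 and 0.16 for the controls, and that of the core genes, 0.36, was 0.52, 0.17 and 0.35.

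**Figure D3:**
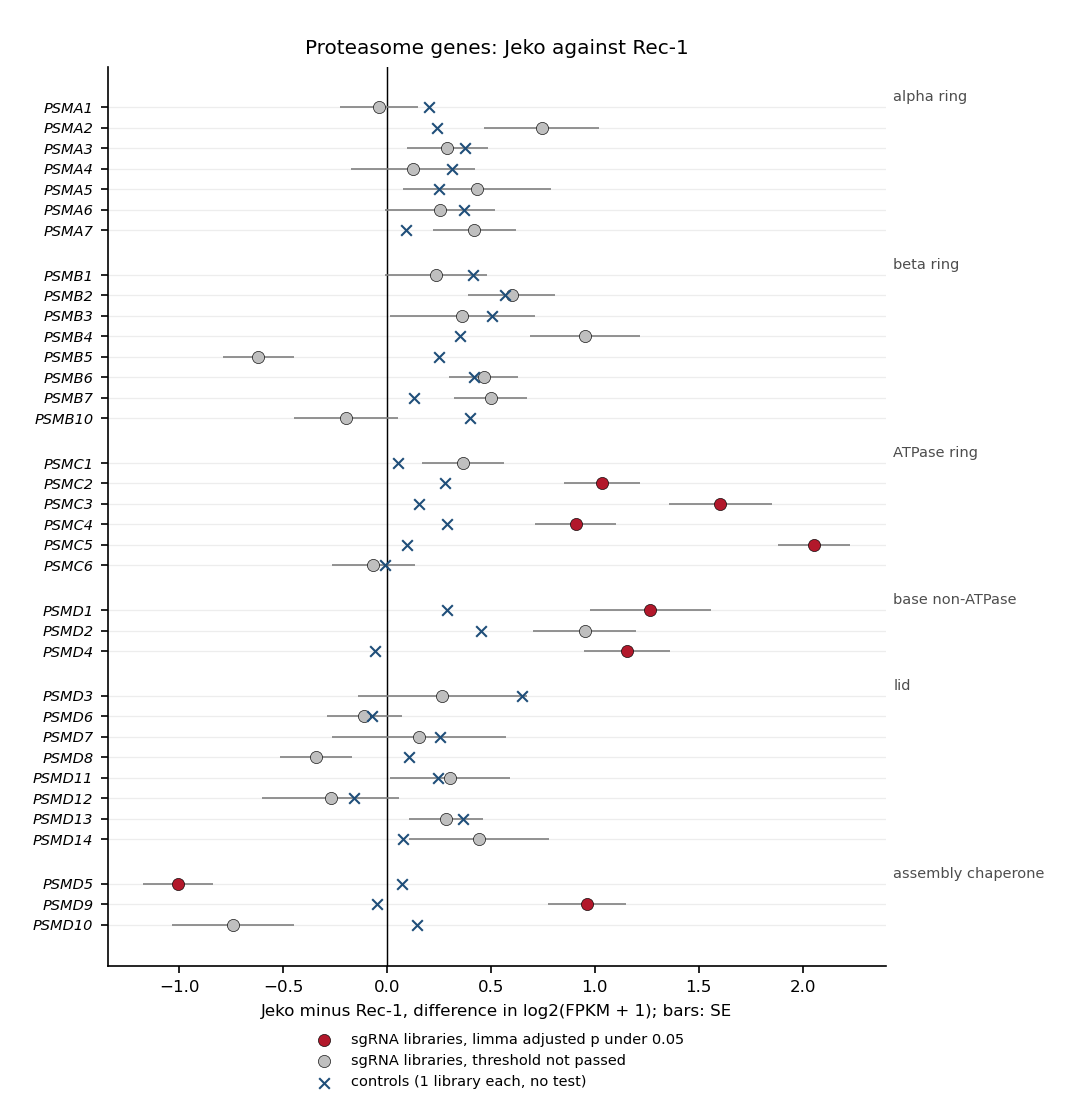
Jeko minus Rec-1 difference in log2(FPKM + 1) for the 35 tested genes. Circles are means of 2 sgRNA libraries per line with the limma SE, red where the adjusted p is under 0.05, and crosses are the 2 controls; the 7 red circles on the right are ATPase and base genes and PSMD9, and the cross farthest to the right is that of PSMD3 at 0.65.

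With the controls included as labelled, no member passed the test between the lines. The fit of all 6 libraries called 0 of 35 by limma, where 0.0439% of all genes were called, with 9 members at an unadjusted p under 0.05, where 23.5% of genes were. PSMC5 had a difference of 1.40 (SE 0.42, adjusted p = 0.202). Without the Rec-1 control 8 members passed (25.6% of all genes did), and without the Jeko control 8 passed (25.8%). In each case they were the 8 genes named from the sgRNA libraries. That was fixed in advance. With either control left out, the remaining control is taken up by the sgRNA term. The line difference then comes from the sgRNA libraries alone (PSMC5 again 2.05), so these fits add no support.

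Whether the sgRNA difference itself differed between the lines was tested by the interaction of line and sgRNA. PSMC5 was the 1 member of 35 that passed, where 6.94% of all genes did, and 6 members had an unadjusted p under 0.05, where 21.9% of genes did. The Rec-1 difference of PSMC5 from its control was lower than the Jeko difference by -1.96 (SE 0.31, limma adjusted p = 0.0469). The adjusted p was 0.0727 with a minimum mean of 5 FPKM, 0.0511 with no filter and 0.117 to 0.156 with 1 sgRNA library left out. For PSMB5 the interaction was 0.87 (SE 0.31, adjusted p = 0.225). Each line has 1 control in this test, and that of Rec-1 is the library that resembled Jeko.

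Other genes of the proteasome pathway were read from a fixed list, of which 38 were tested. None passed the test of sgRNA against control (0.246% of all genes did), with 12 at an unadjusted p under 0.05 by limma, where 21.1% of all genes were. The lowest adjusted p was that of PSMG3, a chaperone of core assembly, at 178, 77.4 and 64.9 FPKM in the Jeko libraries and 156, 46.8 and 53.7 FPKM in the Rec-1 libraries. All 4 sgRNA libraries lay below both controls, and the difference was -1.47 (SE 0.19, adjusted p = 0.106). Between the sgRNA libraries of the lines, 8 were higher in Jeko (13.1% of all genes were), among them the activator genes PSME1, PSME2 and PSME3, the core assembly chaperone PSMG4, the deubiquitinase UCHL5, the ubiquitin ligase UBE3C and the shuttle factor UBQLN4, and TXNL1, a thioredoxin-like protein of the proteasome, was lower (12.6% of all genes were). PSMG4 was at 26.3, 22.2 and 20.5 FPKM in Jeko and 25.8, 6.02 and 6.16 FPKM in Rec-1, with both Rec-1 sgRNA libraries below the rest (difference 1.66, SE 0.17, adjusted p = 0.00747). NFE2L1 was at 113, 50.7 and 176 FPKM in Jeko, with the guides on either side of the control, and at 128, 81.1 and 84.2 FPKM in Rec-1.

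Transcript length moved with the differences from control. The canonical transcripts of the 35 members had a median of 1540 nt, against 3225 nt for the tested protein-coding genes, and 21 of the 35 fell in the shortest of 5 equal length classes of those genes and 0 in the longest. Over all protein-coding genes in the shortest class, the median difference was -0.31 and -0.36 in the Jeko sgRNA libraries and -0.22 and -0.25 in those of Rec-1, and in the longest class 0.36, 0.36, 0.15 and 0.22. The 21 members in the shortest class had medians of -0.36, -0.46, -0.63 and -0.44. After adjustment for length the mean of the 2 guides' core medians went from -0.42 to -0.16 in Jeko and from -0.34 to -0.31 in Rec-1, and that of the regulatory medians from -0.35 to -0.11 in Jeko and from -0.67 to -0.51 in Rec-1. With the adjustment 10 members passed the test between the sgRNA libraries of the lines, against 8 without it. Calls rose over all genes too, to 3613 of 10729 genes with the adjustment from 2933 of 11400 without it.

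**Figure D4:**
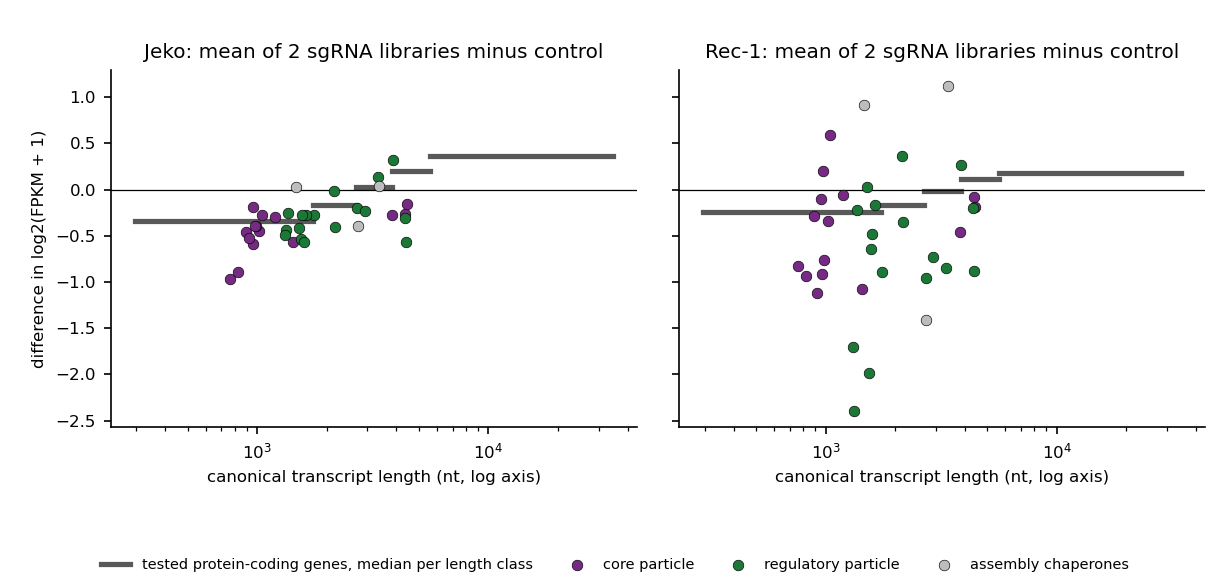
Mean difference of the 2 sgRNA libraries from the control, in log2(FPKM + 1), against canonical transcript length (nt, log axis) for the 35 tested genes in Jeko (left) and Rec-1 (right). Grey bars span each of 5 equal length classes of the tested protein-coding genes, at the mean of the 2 libraries' medians; the bars go up with length, and the members of Rec-1 scatter more widely around them than those of Jeko.

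The 8 genes that passed between the sgRNA libraries lie on different chromosomes. In GRCh37, PSMC5 lies on chromosome 17 (61904512 to 61909386, plus strand), PSMC3 on chromosome 11 (47440320 to 47448024, minus strand), PSMD4 on chromosome 1 (151227185 to 151239955, plus strand), PSMD9 on chromosome 12 (122326638 to 122356203, plus strand) and PSMD5 on chromosome 9 (123577774 to 123605229, minus strand). Of the other 5 members on chromosome 17, PSMB3, PSMB6, PSMD3, PSMD11 and PSMD12, none passed the test between the sgRNA libraries. Of all tested genes 25.7% did, so with 5 genes this count says little. PSMB4, close to PSMD4 on chromosome 1 (151372036 to 151374413), did not pass that test either. It was higher in Jeko like PSMD4, with a difference of 0.95 (SE 0.27, limma adjusted p = 0.0690). The part of chromosomal position was not tested.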

How the data were processed

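The authors deposited 1 table of FPKM per gene symbol with 1 column per library, per the file headers. The submitters' processing notes name TopHat and hg19, without version, role or order; the program that computed FPKM and the annotation are not given in the sources used here. The 6 columns were matched to samples by line and guide number. A total of 28 gene names had become dates and were kept. FPKM summed to 905778 to 1160110 per library, of which MIR6723 and MIR4461 held 21.6% to 36.9%; read depth is unknown, so no counting intervals were computed. Depth relative to the Jeko control, read from steps in low values, was 0.687 to 1.10, and none could be read for Rec-1 sgRNA 1.

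The 11400 genes averaging 1 FPKM or more were analysed as log2(FPKM + 1), which understates the differences of low genes, with limma 3.58.1 (eBayes with trend, R 4.3.3) and Benjamini-Hochberg adjustment over these genes; an adjusted p of 0.05 was the threshold. The fits were run on simulated data with known differences and the same noise for every gene. Such data do not copy the spread of these libraries, so that run checks the code only. Differences from the own-line control are descriptions, since each line has 1 control. Lengths and GRCh37 coordinates are from GENCODE 44, lifted to that build. Python 3.11.15 with pandas 2.3.3 was used for tables.

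Members and lists were chosen with earlier results of these data known. Values in every library are given for the catalytic subunits and PSMB10, the extremes of each subcomplex by mean difference, up to 5 called members per test and direction by size of the difference, and up to 5 members per line and direction at 1.5-fold or more with both guides; PSMD14, PSMA4, PSMD3 and the pathway genes were added after their values were seen. Some genes of the pathway list are not reported here by name and stay in that list's counts. Alternatives were a pseudocount of 0.1, a minimum mean of 5 FPKM or none, equal totals without the 2 microRNA genes, quantile normalization, a length adjustment, protein-coding genes only, eBayes without trend, each library left out, and the guide number as a block.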

Additional observations from a re-analysis of the deposited data

Results flagged for a closer look

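PSMC5 stood out because its difference from the control differed between the lines in the interaction test. PSMC5 was the 1 member of 35 that passed it, where 6.94% of all tested genes did. The Rec-1 difference minus the Jeko difference was -1.956 on the log2(FPKM + 1) scale (limma adjusted p = 0.0469), with both guides of each line below their control. PSMB5 stood out because both Jeko sgRNA libraries were below their control and both Rec-1 sgRNA libraries above theirs. Of all tested genes 9.90% held this pattern. The difference of differences of PSMB5 was 0.8674 (limma adjusted p = 0.225), which did not pass the test. Both values use the library labelled Rec-1 control, and its part in them was not tested.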

How the results depend on the processing

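For sgRNA against control, the count of members called was 0 in every alternative but that without the Jeko control; over the libraries left out it ranged from 0 to 5. For Jeko against Rec-1 in all 6 libraries it was 0, but 8 without either control, where sgRNA libraries alone set the line difference. Between the sgRNA libraries it was 6 to 10 over the alternatives that keep all 4 libraries (6 with the replicate block) and 1 to 2 with 1 left out, where 1 line has a single library and fewer genes pass throughout. PSMC5 passed in 13 of 13 alternatives. The interaction count was 0 with a minimum mean of 5 FPKM, 0 with no filter, 0 with the replicate block (chosen after seeing the data) and 0 with any sgRNA library left out; the cause was not tested. The interaction could not be fitted without a control.

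The Jeko core median of -0.42 was -0.26 under quantile normalization and -0.16 under the length adjustment, and the Jeko regulatory median of -0.35 was -0.24 and -0.11. With 1 guide each, chosen after seeing the data, the medians ranged from -0.49 to -0.34 (Jeko core), -0.53 to -0.16 (Rec-1 core), -0.41 to -0.28 (Jeko regulatory) and -0.85 to -0.49 (Rec-1 regulatory).

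No difference that passed its test reversed. For sgRNA against control, PSMA3 became 0.16 and PSMB10 0.20 under the length adjustment, PSMB10 also 0.20 without the Jeko control, and without the Rec-1 control PSMB5 became -0.28 and PSMD1 0.13; over the libraries left out PSMB10 ranged from -0.40 to 0.20 and PSMB5 from -0.28 to 0.59. Between the sgRNA libraries, PSMB10 ranged from -0.48 to 0.084 (without Rec-1 sgRNA 1), PSMD11 from -0.029 (without Rec-1 sgRNA 1) to 0.63, and PSMC6 became 0.11 without Jeko sgRNA 2; the causes were not tested.

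The labels do not say that guides of the same number are linked. Deviations of same-numbered libraries correlated at 0.0998 over all tested genes and 0.539 over the 35 members. With the guide number as a block, PSMC4, PSMD1 and PSMD9 no longer passed between the sgRNA libraries (adjusted p = 0.0526, 0.0639 and 0.0526 by limma), PSMB4 passed (0.0433), and no other call of that comparison was lost or gained. The interaction of PSMC5 had an adjusted p of 0.0863 with the block. Read depth is unknown, which limits what can be said of PSMA8.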
